A study of Mus musculus with 3 samples.

Results

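The interferon-stimulated genes and the transcription factors that drive them were read in fibroblast RNA from the mouse heart. The list held 41 genes, chosen by name with earlier results of these data known. A gene was read where the table of values had an entry that matched its GRCm38 position and was alone at its locus. This gave 29 genes with a value of their own, out of 31930 entries in each table, of which 17379 could be given a gene symbol. The other 12 genes, Ifit1, Ifi35, Dhx58, Parp9, Parp14, Dtx3l, Gbp2, Gbp3, Gbp7, Igtp, Trim30a and Rtp4, lie at loci that several entries share or in entries that span more than a single gene, or have no entry that matches their annotated span. Their values are given by locus near the end.

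Interferons are secreted proteins that cells release when they sense viral or bacterial nucleic acid or damage, and that act on the releasing cell and its neighbours. Type I interferons bind the receptor made of Ifnar1 and Ifnar2, and the kinases Jak1 and Tyk2 then activate Stat2, which joins Irf9 in the complex ISGF3 that binds the interferon-stimulated response element (ISRE). Interferon gamma acts at gamma-activated sites (GAS), and Irf1 and Irf7 carry the response further. In the infarcted heart, interferon signalling is known mainly from infiltrating leukocytes.

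Fibroblasts were compared in 3 groups of mice on the C57/BL6 background, all labelled 12 weeks of age, with 1 library in each group. The uninjured group came from hearts of WT mice without an infarct, and the digested cells were plated for 4 h, so that adherent cells were collected. The FSP1+ group came from FSP1-GFP transgenic mice 10 days after myocardial infarction (MI), sorted for GFP and against CD45 and CD31, the surface proteins of leukocytes and endothelial cells. The αSMA+ group came from aSMA-GFP transgenic mice 10 days after MI and was sorted on GFP alone. In both sorts a promoter-driven GFP chose the cells, the hearts were pooled according to the study, and the plating step was used for the uninjured cells only, so that injury, genotype, sorting and plating cannot be told apart. With 1 library per group there was no replicate check, so no test was made, and every difference below is between libraries.

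Levels are given as TPM, which scale the transcripts of each library to the same total and are per length of transcript. Ratios are log2 ratios of FPKM (fragments scaled to transcript length and sequencing depth) after 1 FPKM was added to each value, each read from the table of its own pair of libraries, and higher or lower is counted from a 2-fold difference on. A list's count is read against the share of all measured entries that pass the same fold. The tables hold no read numbers, and counting error could not be estimated. The lowest values showed that 1 read was worth 1.57 times as many FPKM in the uninjured as in the FSP1+ library and 1.35 times as many in the αSMA+ as in the FSP1+ library, so low values were resolved most finely in the FSP1+ library.

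The labels were read against their own genes first. S100a4, which encodes FSP1, stood at 47.0 TPM in the FSP1+-labelled library, 16.5 in the αSMA+-labelled library and 17.9 in the uninjured library. Acta2, which encodes αSMA, stood at 427 TPM in the FSP1+-labelled library, 89.6 in the αSMA+-labelled library and 171 in the uninjured library, so the αSMA+-labelled library had the lowest level of the gene it is named for. Genes of other cell types differed as well. Macrophage markers summed to 6088 TPM in the FSP1+-labelled library, 1909 in the αSMA+-labelled library and 193 in the uninjured library, over 17 of 20 listed markers. Endothelial markers summed to 1811, 404 and 146 TPM in the same order, over 13 of 16 listed markers. Fibroblast markers summed to 9296, 9791 and 22071 TPM, over 12 of 14 listed markers. For FSP1+ over uninjured 9 of the 12 were at least 2-fold lower and 0 higher, beside 16.0% and 14.6% of all entries. For FSP1+ over αSMA+ 4 were higher and 5 lower, beside 19.1% and 14.5% of all entries. Among these markers Pdgfra stood at 25.2, 445 and 675 TPM, Col1a1 at 1375, 367 and 3672 TPM and Vim at 2653, 1420 and 1919 TPM. In bulk RNA, fewer cells of a type and less RNA per cell cannot be told apart. The part that these other cell types had in the values below was not tested.

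Interferon response genes are recognised by short elements in front of their start sites, and the sequences shown here are those of members on which the results turn. Promoters of 300 bases, from 250 before to 50 after the start site, were given by RefSeq on GRCm38.p6 for 32 of the 41 listed genes. The ISRE core was searched on both strands as GAAA followed by any 2 bases and GAAA again, and the GAS, which is its own reverse complement, as TTC followed by any 3 bases and GAA. The ISRE core was found in 18 of the 32 listed genes, or 56.2%, against 3.99% of 27025 genes in the promoter table. The GAS was found in 8 of the 32, or 25.0%, against 9.55% of all genes. A match is a match of letters only, and no match says only that these letters are not in this window.

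The 200 bases before the start site are printed below in the direction of transcription, with ISRE and GAS matches in capitals and adjoining matches run together. Isg15 (chr4:156200819-156201018, minus strand) held 3 overlapping ISRE cores. Ifit3 (chr19:34583329-34583528, plus strand) held 2 ISRE cores on the opposite strand. Oas1a (chr5:120907526-120907725, minus strand) held 2 overlapping ISRE cores close to the start and a GAS upstream.
Isg15: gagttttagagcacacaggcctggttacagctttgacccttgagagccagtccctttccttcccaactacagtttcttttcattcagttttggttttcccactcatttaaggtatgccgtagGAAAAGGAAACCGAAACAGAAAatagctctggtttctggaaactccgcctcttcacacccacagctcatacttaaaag
Ifit3: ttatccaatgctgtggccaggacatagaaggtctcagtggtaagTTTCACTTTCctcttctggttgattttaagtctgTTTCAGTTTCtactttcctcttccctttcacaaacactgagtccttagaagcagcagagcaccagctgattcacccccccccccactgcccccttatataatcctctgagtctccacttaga
Oas1a: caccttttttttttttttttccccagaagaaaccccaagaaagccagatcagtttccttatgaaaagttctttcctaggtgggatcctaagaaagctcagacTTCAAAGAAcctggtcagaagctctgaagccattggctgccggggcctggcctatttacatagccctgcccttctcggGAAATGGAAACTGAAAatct

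Bst2 (chr8:71537473-71537672, minus strand) held a GAS that runs into 2 overlapping ISRE cores. Irf1 (chr11:53769814-53770013, plus strand) held a GAS and no ISRE core. Oasl1 (chr5:114923040-114923239, plus strand) held neither, and is shown because its values set it apart from the other members below.
Bst2: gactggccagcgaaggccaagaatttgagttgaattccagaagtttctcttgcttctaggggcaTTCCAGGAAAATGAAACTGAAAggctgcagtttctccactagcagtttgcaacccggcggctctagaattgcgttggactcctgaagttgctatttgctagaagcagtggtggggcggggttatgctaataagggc
Irf1: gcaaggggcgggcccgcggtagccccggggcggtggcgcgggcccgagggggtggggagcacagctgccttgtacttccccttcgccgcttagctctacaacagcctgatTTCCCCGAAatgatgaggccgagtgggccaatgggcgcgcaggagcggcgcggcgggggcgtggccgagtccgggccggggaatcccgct
Oasl1: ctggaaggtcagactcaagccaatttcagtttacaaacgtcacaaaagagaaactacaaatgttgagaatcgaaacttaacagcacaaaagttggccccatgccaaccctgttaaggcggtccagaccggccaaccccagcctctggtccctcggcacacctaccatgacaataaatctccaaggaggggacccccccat

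**Figure D1:**
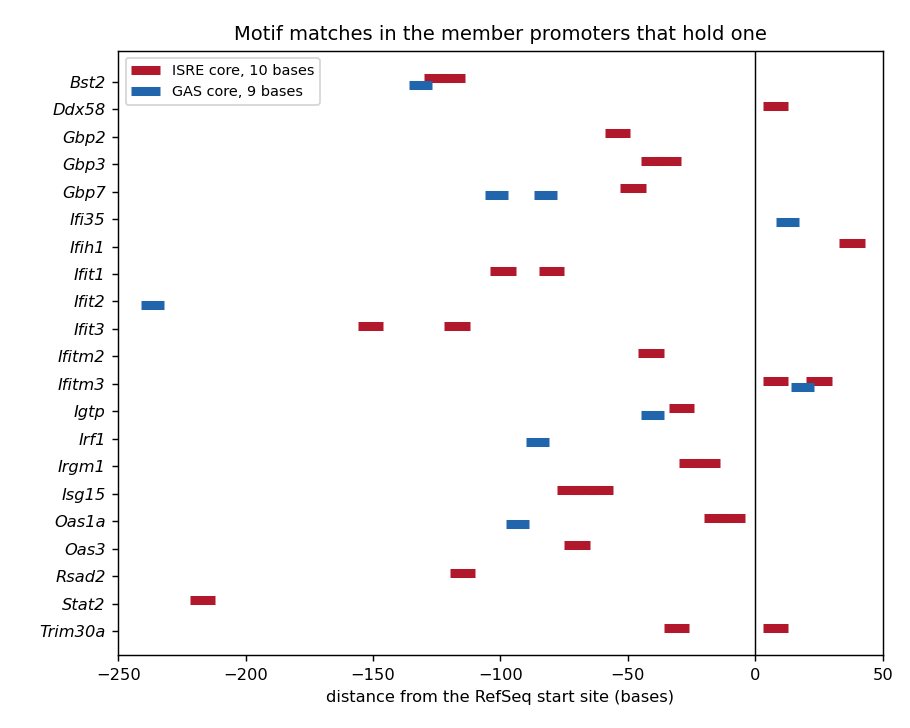
Each row is a listed gene whose promoter held a match, and the horizontal axis is the distance from the RefSeq start site in bases. Red bars are ISRE cores of 10 bases and blue bars GAS cores of 9 bases. Isg15 holds 3 overlapping ISRE cores and Irf1 a GAS alone.

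All 29 members passed the minimum of 1 FPKM in every comparison. In the FSP1+-labelled library, 24 of the 29 were at least 2-fold higher than in the uninjured library and 0 were at least 2-fold lower. Of all 17578 entries measured in this comparison, 14.6% were at least 2-fold higher and 16.0% at least 2-fold lower. The members' median log2 ratio was 1.60, with a range from -0.41 to 3.41, and that of all entries was 0.02. The largest ratios belonged to the transcription factor Irf1, the GTPase Iigp1, the transcription factor Irf7 and the OAS family gene Oasl1. The members just past 2-fold were Mx1 at 1.03 and Oasl2 at 1.10, and those just short of it were Ifit3 at 0.88 and Ifitm2 at 0.78.

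Between the αSMA+-labelled library and the uninjured library, 7 of the 29 members were at least 2-fold higher and 0 were at least 2-fold lower. Here 17.0% of 17204 entries were at least 2-fold higher and 7.11% at least 2-fold lower, so the members' share of 7 in 29 was close to that of all entries. The members' median was 0.44 and that of all entries 0.05. The 7 genes were Irf1, Oasl1, Rsad2, Isg15, Irgm1, Iigp1 and Ifitm3, and each of them was also at least 2-fold higher in the FSP1+-labelled library. Isg15 lay just past the threshold at 1.002 and Trim25 just short of it at 0.93. In TPM the median of all entries moved by -0.52, the members' median became -0.05, and 14 members lay above the uninjured level in place of 24. In TPM the calls of Isg15 and Ifitm3 ended, at 0.39 and 0.68, and Ifit3 was at least 2-fold lower, at -1.34.

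Between the FSP1+-labelled and αSMA+-labelled libraries, 17 of the 29 members were at least 2-fold higher in the FSP1+-labelled library and 1, Oasl1, was at least 2-fold lower. Of 16374 entries, 19.1% were at least 2-fold higher in the FSP1+-labelled library and 14.5% at least 2-fold lower. The members' median was 1.14 and that of all entries 0.04. Taking both comparisons of the FSP1+-labelled library, 16 members were at least 2-fold above the uninjured and the αSMA+ libraries alike, and 8 were at least 2-fold above the uninjured library alone. These comparisons share libraries, so they are not independent of each other. The shares of all entries above are for single comparisons, and none is given here for the joint counts of 16 and 8.

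**Figure D2:**
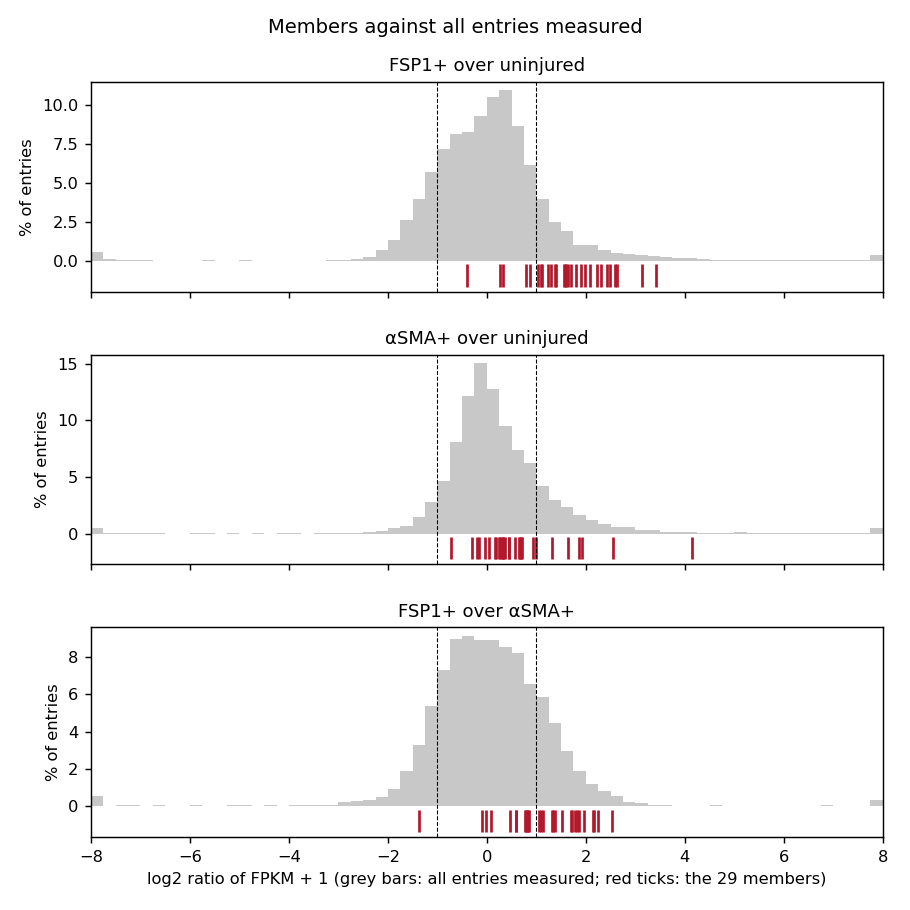
Grey bars show the percentage of all measured entries in each step of the log2 ratio of FPKM + 1, with values beyond 8 gathered in the outermost bars, and red ticks mark the 29 members. Dashed lines mark 2-fold. The members' medians were 1.60, 0.44 and 1.14 against 0.02, 0.05 and 0.04 for all entries, and in TPM the middle comparison has a members' median of -0.05.

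On the TPM scale, 27 of the 29 members were highest in the FSP1+-labelled library, Oasl1 was highest in the αSMA+-labelled library and Oas3 was highest in the uninjured library. The share of all entries highest in each library is not given here, so this count describes the members only. The members summed to 4900.5 TPM in the FSP1+-labelled library, 2317 in the αSMA+-labelled library and 1946 in the uninjured library. Most of this sum came from Ifitm3, Ifitm2 and Bst2, and without them the sums were 1460, 564 and 403 TPM. The median member stood at 38.6, 13.4 and 20.4 TPM in the same order.

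**Figure D3:**
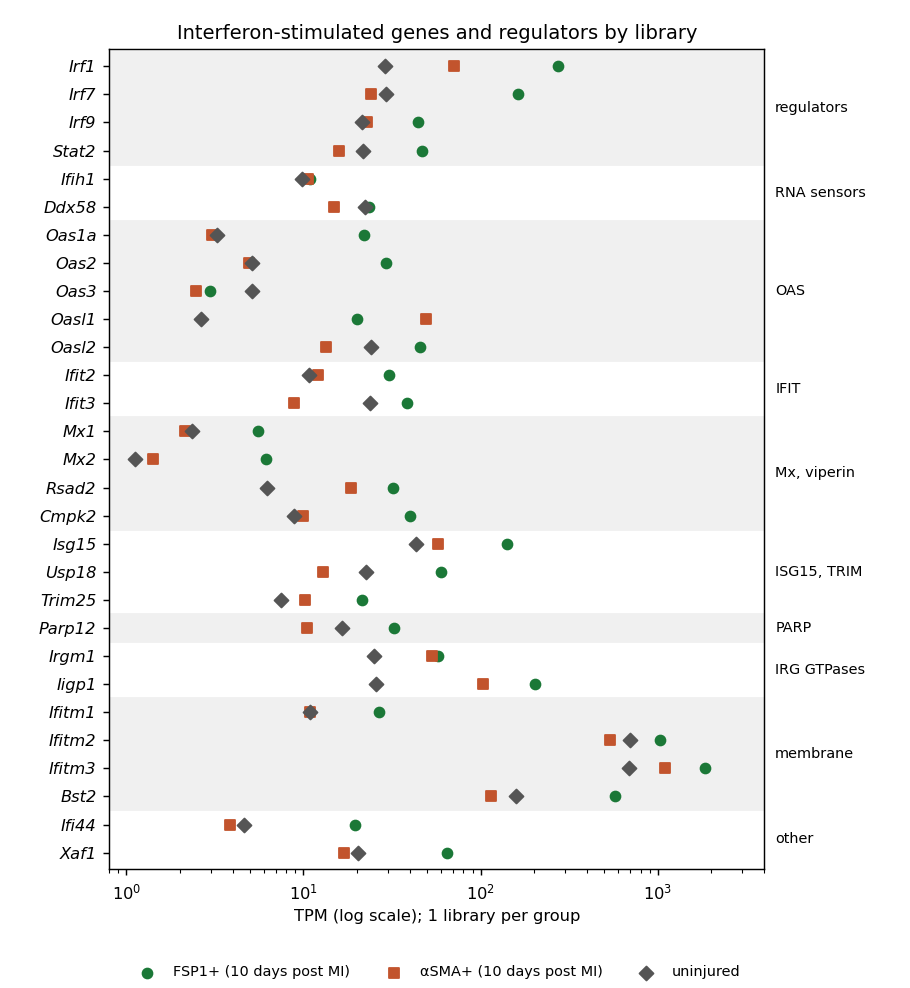
Each row is a member and each point its TPM in 1 library, on a log axis, with green circles for FSP1+, orange squares for αSMA+ and grey diamonds for uninjured. The green circle is rightmost in 27 of the 29 rows, and Oasl1 and Oas3 are the exceptions. The same share over all entries is not given here.

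Among the transcription factors, Irf1 gave the largest ratio of any member in the FSP1+-labelled library. Irf1 (chr11:53770014-53778374), which interferon gamma and inflammatory signals induce and which activates many interferon-stimulated genes, stood at 274 TPM in the FSP1+-labelled library, 70.7 in the αSMA+-labelled library and 28.8 in the uninjured library. Its FPKM + 1 was 10.6-fold higher in the FSP1+-labelled library and 3.63-fold higher in the αSMA+-labelled library than in the uninjured library. Irf1 thus differed in both infarct libraries, and its ratio between them was 3.45-fold. In the first comparison it lay above 98.1% of all entries.

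Irf7 followed another pattern. Irf7 (chr7:141263183-141266424), the factor that amplifies transcription of type I interferon genes, stood at 162 TPM in the FSP1+-labelled library, 24.2 in the αSMA+-labelled library and 29.4 in the uninjured library. Its log2 ratio was 2.63 for FSP1+ over uninjured, 0.33 for αSMA+ over uninjured and 2.53 for FSP1+ over αSMA+. Only the FSP1+-labelled library stood apart for Irf7, while the levels of the other 2 libraries were close, and which of them was higher depended on the scale.

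Irf9 and Stat2, the DNA-binding and activating parts of ISGF3, differed less. Irf9 (chr14:55603985-55610030) stood at 44.5 TPM in the FSP1+-labelled library, 22.8 in the αSMA+-labelled library and 21.4 in the uninjured library, with a ratio of 2.34-fold for FSP1+ over uninjured. Stat2 (chr10:128270576-128292849) stood at 46.9, 15.9 and 21.5 TPM in the same order, with a ratio of 2.44-fold for FSP1+ over uninjured and 2.52-fold for FSP1+ over αSMA+. All 4 listed regulators were at least 2-fold higher in the FSP1+-labelled library than in the uninjured library, and among them Irf1 alone was so in the αSMA+-labelled library.

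The RNA sensors with an entry of their own, Ifih1 and Ddx58, did not pass 2-fold in any comparison. Ifih1 (chr2:62595793-62646255), which encodes MDA5, a helicase that binds long double-stranded RNA, stood at 10.8 TPM in the FSP1+-labelled library, 10.6 in the αSMA+-labelled library and 9.81 in the uninjured library. Ddx58 (chr4:40203777-40239825), which encodes RIG-I, a helicase that binds the triphosphate end of viral RNA, stood at 23.4, 14.9 and 22.4 TPM. Their log2 ratios of FPKM + 1 lay between -0.11 and 0.65 across the 3 comparisons, so these were among the flattest of the members on that scale. In TPM the log2 ratio of Ddx58 for αSMA+ over uninjured was -0.55.

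The oligoadenylate synthetase family, whose active enzymes make the messenger that switches on RNase L, split into distinct patterns. Oas1a (chr5:120896257-120907525) stood at 21.8 TPM in the FSP1+-labelled library, 3.06 in the αSMA+-labelled library and 3.25 in the uninjured library. Oas2 (chr5:120730333-120749848) stood at 29.4, 4.92 and 5.15 TPM in the same order. Both were high in the FSP1+-labelled library alone, with log2 ratios over uninjured of 2.50 for Oas1a and 2.42 for Oas2.

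Oas3 (chr5:120753098-120777659), whose entry lies 3.25 kb from that of Oas2, did not share this pattern. It stood at 2.95 TPM in the FSP1+-labelled library, 2.46 in the αSMA+-labelled library and 5.10 in the uninjured library, with log2 ratios of -0.41, -0.30 and 0.08. Oas3 was the only member whose ratio for FSP1+ over uninjured was below 0, and it did so in each of the alternative scalings as well. Its promoter held an ISRE core.

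Oasl1 stood apart from every other member. Oasl1 (chr5:114923240-114937911), which lacks synthetase activity and in the mouse is known to restrain translation of Irf7 mRNA, stood at 20.1 TPM in the FSP1+-labelled library, 49.3 in the αSMA+-labelled library and 2.64 in the uninjured library. Its ratio over uninjured was 17.6-fold in the αSMA+-labelled library, above 98.5% of all entries, and 5.99-fold in the FSP1+-labelled library. Between the infarct libraries its log2 ratio was -1.37, the only member at least 2-fold lower in the FSP1+-labelled library.

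Oasl2 (chr5:114896934-114912245), which in the mouse kept synthetase activity, lies 11.0 kb from Oasl1 and had the infarct libraries in the reverse order. It stood at 45.5 TPM in the FSP1+-labelled library, 13.4 in the αSMA+-labelled library and 24.0 in the uninjured library. Its log2 ratios were 1.10 for FSP1+ over uninjured, -0.20 for αSMA+ over uninjured and 1.52 for FSP1+ over αSMA+.

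The IFIT proteins are built of repeated helical motifs, and some of them bind viral RNA and interfere with its translation. Ifit2 (chr19:34550694-34576534) stood at 30.4 TPM in the FSP1+-labelled library, 12.1 in the αSMA+-labelled library and 10.7 in the uninjured library. Ifit3 (chr19:34583529-34588982), 6.99 kb away, stood at 38.6, 8.81 and 23.8 TPM. Ifit2 had its lowest level in the uninjured library and Ifit3 in the αSMA+-labelled library. Ifit3 had the lowest log2 ratio of any member for αSMA+ over uninjured, at -0.73, and a ratio of 3.55-fold for FSP1+ over αSMA+.

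Mx1 and Mx2 encode dynamin-like GTPases that block viral replication, and the Mx1 allele of C57BL/6 mice is known to be disrupted. Mx1 (chr16:97447035-97462906) stood at 5.50 TPM in the FSP1+-labelled library, 2.15 in the αSMA+-labelled library and 2.35 in the uninjured library. Mx2 (chr16:97536081-97560901) stood at 6.15, 1.41 and 1.12 TPM. These were among the lowest levels of all members, and both genes were highest in the FSP1+-labelled library, with log2 ratios over uninjured of 1.03 for Mx1 and 1.71 for Mx2.

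Rsad2 and Cmpk2 are neighbours on chromosome 12, with 12.8 kb between their entries. Rsad2 (chr12:26442743-26456452), which encodes viperin, an enzyme that makes a chain-terminating nucleotide, stood at 31.8 TPM in the FSP1+-labelled library, 18.6 in the αSMA+-labelled library and 6.25 in the uninjured library. Cmpk2 (chr12:26469215-26479837), a nucleotide kinase of mitochondria, stood at 40.1, 9.93 and 8.80 TPM. Against the uninjured library their ratios in the FSP1+-labelled library were close, 4.97-fold for Rsad2 and 4.68-fold for Cmpk2. In the αSMA+-labelled library they parted, at 3.79-fold for Rsad2 and 1.62-fold for Cmpk2.

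Isg15, Usp18 and Trim25 were each at least 2-fold higher in the FSP1+-labelled library than in the uninjured library. Isg15 (chr4:156199424-156200818), a ubiquitin-like protein that is attached to other proteins, stood at 142 TPM in the FSP1+-labelled library, 57.3 in the αSMA+-labelled library and 43.4 in the uninjured library. Usp18 (chr6:121245906-121270917), which removes Isg15 and restrains signalling at the type I receptor, stood at 60.1, 12.9 and 22.4 TPM. Trim25 (chr11:88999403-89020293), a ligase for Isg15 and for the sensor RIG-I, stood at 21.4, 10.3 and 7.45 TPM. Of these, Usp18 had the largest ratio between the infarct libraries, at 3.88-fold, and Isg15 alone passed 2-fold for αSMA+ over uninjured. That call of Isg15 lay at the threshold, with 49.3 against 24.1 FPKM in the table of this pair.

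Parp12 (chr6:39086412-39118349), an ADP-ribosyltransferase that acts on viral proteins, stood at 32.2 TPM in the FSP1+-labelled library, 10.4 in the αSMA+-labelled library and 16.5 in the uninjured library. Its ratio was 2.18-fold for FSP1+ over uninjured and 2.58-fold for FSP1+ over αSMA+. Ifi44 (chr3:151730923-151749959), a cytoplasmic protein with antiviral activity, stood at 19.5, 3.84 and 4.63 TPM. Xaf1 (chr11:72301629-72313733), a partner of the apoptosis inhibitor XIAP, stood at 64.2, 17.0 and 20.4 TPM. Ifi44 and Xaf1 shared the pattern of Irf7, Oas1a and Oas2, in which the FSP1+-labelled library was high and the other libraries were close to each other.

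Irgm1 and Iigp1, members of the immunity-related GTPase family, were high in both infarct libraries. Interferon gamma induces this family, which acts on membranes around intracellular pathogens. The entry that spans Igtp and Irgm2, also of this family, had log2 ratios over uninjured of 1.90 in FSP1+ and 0.84 in αSMA+. Irgm1 (chr11:48865249-48871346), a regulator of the family, stood at 57.6 TPM in the FSP1+-labelled library, 52.9 in the αSMA+-labelled library and 25.1 in the uninjured library. Iigp1 (chr18:60376029-60392629), an effector of the family, stood at 203, 103 and 25.6 TPM. The ratio of Iigp1 over uninjured was 8.80-fold in the FSP1+-labelled library and 5.89-fold in the αSMA+-labelled library. That of Irgm1 was 2.59-fold and 3.11-fold. Between the infarct libraries the log2 ratio of Irgm1 was -0.03 and that of Iigp1 0.82, so neither passed 2-fold there.

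Of the membrane proteins, Ifitm3, Ifitm2 and Bst2 had the highest mean levels of all members, and Ifitm1 was far below them. Ifitm3 (chr7:141009590-141010744), which blocks fusion of viruses with endosomes, stood at 1839 TPM in the FSP1+-labelled library, 1100.3 in the αSMA+-labelled library and 686 in the uninjured library. Ifitm2 (chr7:140954839-140955961) stood at 1029, 538 and 700.03 TPM in the same order. Ifitm1 (chr7:140967429-140969827) stood at 26.7, 10.9 and 10.8 TPM. The 3 genes lie in a row within the same cluster, with 11.5 kb between the entries of Ifitm2 and Ifitm1 and 39.8 kb between those of Ifitm1 and Ifitm3, and they differed in level more than in ratio. Their log2 ratios for FSP1+ over uninjured were 0.78 for Ifitm2, 1.40 for Ifitm1 and 1.65 for Ifitm3.

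Bst2 (chr8:71534262-71537437), which encodes tetherin, a protein that holds budding virus on the cell surface and is also a marker of plasmacytoid dendritic cells, stood at 572 TPM in the FSP1+-labelled library, 115 in the αSMA+-labelled library and 158 in the uninjured library. Its ratio of FPKM + 1 was 4.22-fold for FSP1+ over uninjured, 1.13-fold for αSMA+ over uninjured and 4.46-fold for FSP1+ over αSMA+. For αSMA+ over uninjured the direction depended on the scale, with a log2 ratio of 0.17 in FPKM and -0.45 in TPM. Of 5 dendritic cell markers measured, 1 was at least 2-fold higher and 3 at least 2-fold lower for FSP1+ over uninjured. Of all entries, 14.6% were higher and 16.0% lower in that comparison. These markers had a median of -1.08 and sums of 34.5, 30.9 and 31.5 TPM in the FSP1+-labelled, αSMA+-labelled and uninjured libraries. Siglech, a marker of plasmacytoid dendritic cells, stood at 2.30, 3.78 and 7.93 TPM, and the part of such cells in the values of Bst2 was not tested.

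**Figure D4:**
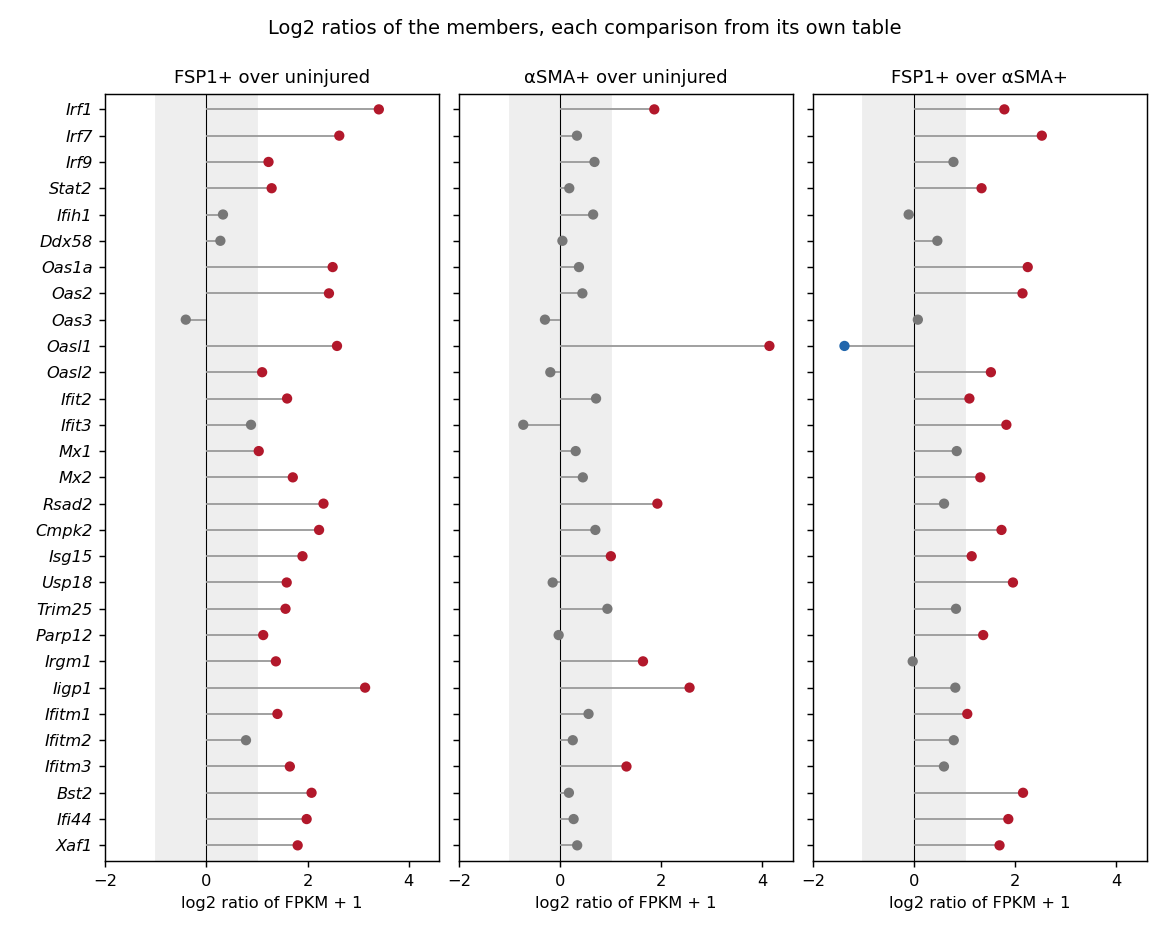
Each row is a member and each panel a pair of libraries, with the log2 ratio of FPKM + 1 on the horizontal axis and the grey band marking less than 2-fold. Red points are at least 2-fold higher and the blue point at least 2-fold lower. Counts of red points are 24, 7 and 17, and Oasl1 is the blue point, while in TPM 14 members lie above 0 in the middle panel.

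By family, the median log2 ratios for FSP1+ over uninjured were 2.42 for the OAS family, 2.26 for Irgm1 and Iigp1 and 1.96 for the transcription factors. They were 1.97 for the Mx, viperin and Cmpk2 group, 1.89 for Ifi44 and Xaf1 and 1.59 for the Isg15 group. The membrane proteins had 1.53, Ifit2 and Ifit3 had 1.24, Parp12 alone had 1.12 and the sensors had 0.30. For αSMA+ over uninjured, the immunity-related GTPases with a value of their own, Irgm1 and Iigp1, had a median of 2.10. Every other family lay below 1. The families with 2 or more members in which all passed 2-fold for FSP1+ over uninjured were the transcription factors, the Mx and viperin group, the Isg15 group, the GTPases and the pair Ifi44 and Xaf1. Reads that match several of these similar genes could have been shared out between them, and how the counting treated such reads is not given in the sources used here, so single values within the OAS, IFIT, IFITM, Mx and GTPase families are uncertain to that extent.

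At the shared loci, values belong to entries and not to genes. The Gbp2 locus (chr3:142620663-142638008), whose product is a guanylate-binding protein induced by interferon gamma, had a single entry with reads, at 67.7 FPKM in the FSP1+-labelled library against 20.9 in the uninjured library and at 62.0 in the αSMA+-labelled library against 18.1. The log2 ratios there were 1.65 and 1.72, with 0.17 between the infarct libraries. An entry that spans both Igtp and Irgm2 (chr11:58199556-58222783) had log2 ratios of 1.90 for FSP1+ over uninjured and 0.84 for αSMA+ over uninjured. The entry with reads at Trim30a gave 1.19 and 0.45, and that at Parp14 gave 0.49 and -0.08.

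The remaining loci held several entries with reads. The 4 entries at Gbp3 and Gbp7 (chr3:142496934-142619176) gave log2 ratios from -0.05 to 1.92 for FSP1+ over uninjured among the 3 with reads. At Ifit1 (chr19:34592888-34662419), of 4 entries the highest stood at 17.2 FPKM in the FSP1+-labelled library against 9.87 in the uninjured library, and at 25.7 in the αSMA+-labelled library against 8.56. The 2 entries at Dhx58 gave 1.54 and -0.64 for FSP1+ over uninjured, the 3 at Ifi35 gave 0.49 to 1.24, and the 3 that Parp9 and Dtx3l share gave 0.29 to 0.82. An entry that overlaps the annotated span of Rtp4 (chr16:23609919-23614222), but was not given its symbol by the naming rule, gave 1.86. For αSMA+ over uninjured that entry gave 1.33. None of these values can be assigned to a gene from the tables alone.

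The rest of the pathway was read from further lists, also chosen with earlier results of these data known. Of interferon ligands, receptors and kinases, 9 of 10 had an entry of their own and 8 were measured, of which 3 were at least 2-fold higher and 1 at least 2-fold lower for FSP1+ over uninjured, beside 14.6% and 16.0% of all entries, so the share that was lower was near that of all entries. The gene that was lower was Ifnb1, which encodes interferon beta, at 0.797 TPM in the FSP1+-labelled library, 8.44 in the αSMA+-labelled library and 10.9 in the uninjured library. In the FSP1+-labelled library Ifnb1 stood at 0.599 FPKM, under the minimum of 1 FPKM. How its level bears on the members was not tested. Ifng, which encodes interferon gamma, stayed under 1 FPKM in every library.

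The type I receptor chain Ifnar1 had log2 ratios of 0.01 in both infarct libraries over the uninjured library, and Ifnar2 had 1.06 and 1.22. For the interferon gamma receptor, Ifngr1 had 0.45 and -0.05 and Ifngr2 had 0.76 and 0.82. Il10rb, a chain shared by the receptors for interferon lambda and interleukin 10, had 1.66 and 1.06. Among the kinases, Jak2 had 1.06 and 2.32, and Tyk2 had 0.21 and -1.10. Apart from Il10rb in FSP1+, the receptor genes therefore lay within or just past 2-fold of the uninjured library, while the kinases differed between the infarct libraries, with -1.03 for Jak2 and 1.49 for Tyk2.

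Further transcription factors of cytokine signalling were read as well. Stat3, a factor of interleukin 6 signalling, stood at 124 TPM in the FSP1+-labelled library, 330 in the αSMA+-labelled library and 73.3 in the uninjured library. Its log2 ratio between the infarct libraries was -1.55. Irf2, which competes with Irf1 for its sites, had log2 ratios over uninjured of 1.09 and 1.40, and Irf8, a factor of myeloid cells, had 1.19 and 0.32.

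Of 8 sensing and adaptor genes with an entry, 7 were measured, and 4 were at least 2-fold higher for FSP1+ over uninjured, 3 for αSMA+ over uninjured and 1 for FSP1+ over αSMA+, beside 14.6%, 17.0% and 19.1% of all entries. Zbp1, a sensor of left-handed nucleic acid that is itself induced by interferon, stood at 44.3 TPM in the FSP1+-labelled library, 6.20 in the αSMA+-labelled library and 8.71 in the uninjured library. The adaptor Myd88 had log2 ratios over uninjured of 1.21 and 1.33, and the receptor Tlr7 had 1.56 and 1.57. The kinase Tbk1 stood at 20.6 TPM in FSP1+, 37.8 in αSMA+ and 11.3 in uninjured. For Tlr3, Ikbke and Ticam1 the ratios lay within 2-fold in all comparisons, and Tlr9 was below 1 FPKM in every library.

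A further list of 48 interferon-induced genes had 29 with an entry, of which Irgm2 took the entry that also spans Igtp, and 28 were measured. In the FSP1+-labelled library, 15 were at least 2-fold higher than in the uninjured library and 0 were lower, with a median of 1.06, where 14.6% of all entries were higher. For αSMA+ over uninjured 4 of 25 were higher and 1 lower, with a median of 0.49, which is close to the 17.0% of all entries that were higher. For FSP1+ over αSMA+ 15 of 28 were higher and 1 lower, with a median of 1.04, where 19.1% of all entries were higher. Ly6e, a surface protein that limits viral entry, stood at 826, 168 and 158 TPM in FSP1+, αSMA+ and uninjured. Gbp4 and Gbp9, guanylate-binding proteins, had log2 ratios of 2.75 and 2.35 for FSP1+ over uninjured and 1.18 and 1.25 for αSMA+ over uninjured. Lgals3bp, a secreted glycoprotein, had 1.20 and 0.03 in these comparisons, and Ube2l6, the conjugating enzyme for Isg15, had 0.91 and -0.17. The DNA-binding protein Ifi203 was the gene at least 2-fold lower for FSP1+ over αSMA+, at -1.01, and had 1.65 for αSMA+ over uninjured. At the low end, Eif2ak2, the kinase that double-stranded RNA activates, had -0.28 and -0.32, and Apol9a had -0.43 and -1.12.

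Markers of macrophages, cells that express many of these genes, were also higher in the FSP1+-labelled library, with all 17 measured markers at least 2-fold higher than in the uninjured library and a median of 4.10. In the αSMA+-labelled library, 15 of the 17 were at least 2-fold higher, beside 17.0% of all entries, with a marker median of 3.13. The macrophage gene Lyz2 stood at 1622, 646 and 51.1 TPM in FSP1+, αSMA+ and uninjured, C1qa at 445, 99.3 and 11.9 TPM, and Ptprc, which encodes CD45, at 18.5, 12.4 and 5.90 TPM. The endothelial genes Pecam1 and Cdh5 stood at 239 and 97.9 TPM in the FSP1+-labelled library, although the sort selected against CD31, the product of Pecam1. For FSP1+ over uninjured the macrophage marker median of 4.10 stood beside a members' median of 1.60. For αSMA+ over uninjured the medians were 3.13 and 0.44, and for FSP1+ over αSMA+ they were 1.74 and 1.14. Neutrophil markers summed to 254, 51.9 and 57.5 TPM and markers of T and NK cells to 64.9, 21.7 and 35.2 TPM. Most of the T and NK sum in the FSP1+-labelled library came from Lck, at 51.3, 4.02 and 7.35 TPM. Of 8 T and NK markers measured for FSP1+ over uninjured, 3 were at least 2-fold higher and 3 at least 2-fold lower, with a median of -0.33. The neutrophil genes named here were chosen after their values were seen. S100a8 stood at 147, 12.6 and 1.74 TPM and S100a9 at 64.1, 7.23 and 2.05 TPM, and they made up most of the FSP1+ sum. Cxcr2 went the other way, at 8.73, 19.9 and 34.3 TPM. Of 7 neutrophil markers measured, 3 were at least 2-fold higher and 1 at least 2-fold lower for FSP1+ over uninjured, with a median of 0.42. Of all entries, 14.6% were higher and 16.0% lower in that comparison. The share of the members' values that came from such cells was not tested.

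**Figure D5:**
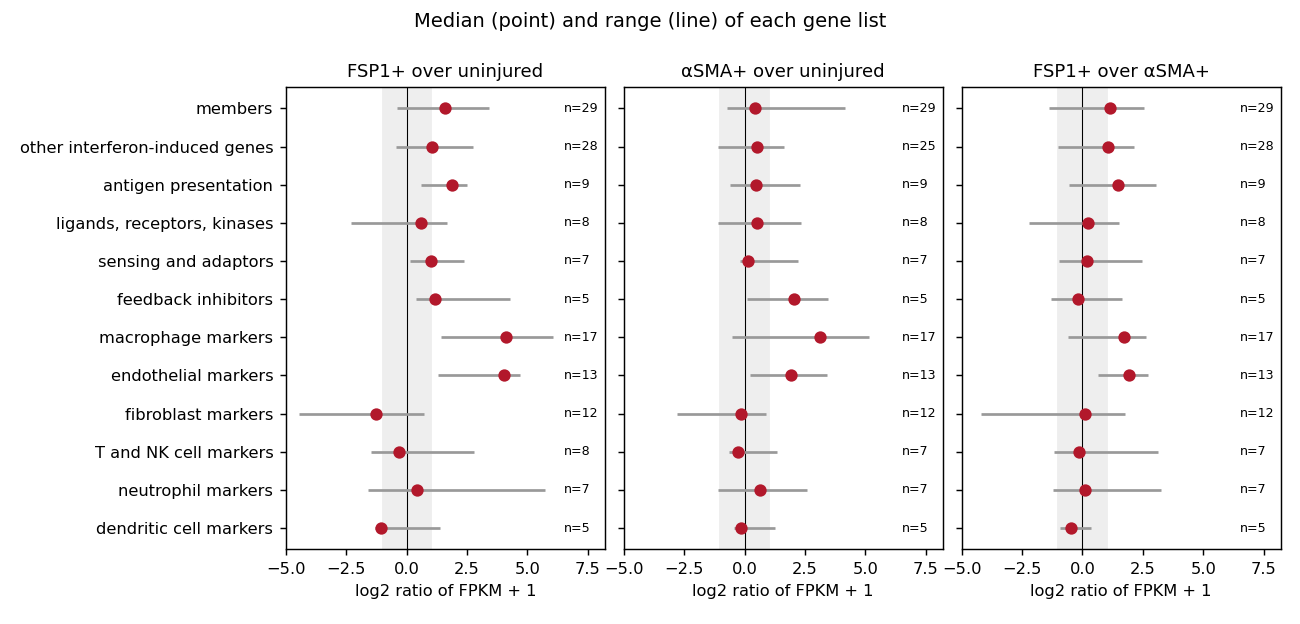
Each row is a gene list and each panel a pair of libraries, with the point at the median log2 ratio of FPKM + 1, the line spanning the lowest to the highest gene and n the genes measured. The members' medians were 1.60, 0.44 and 1.14, beside 4.10, 3.13 and 1.74 for the macrophage markers and 4.01, 1.91 and 1.93 for the endothelial markers.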

How the data were processed

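RNA of uninjured, FSP1+ and αSMA+ fibroblasts was sequenced with 1 library per group. Deposited values are FPKM that the authors computed with Cuffdiff (version not given in the sources used here) after alignment to GRCm38, in 3 tables of 31930 entries that each hold 2 libraries and were scaled separately. The paper's methods give paired-end reads and an Ensembl annotation, whereas the labels give single reads and the entries carry UCSC identifiers. The kit was stranded, but whether the counting used strand is not given. The tables also hold the authors' own comparisons (log2 fold, test statistic, p and q), which were not used, and 0 columns of other samples.

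An offset of 0.001 in every deposited FPKM was subtracted. Entries were named by position from RefSeq GRCm38.p6 and GENCODE M21, for entries alone at their locus whose overlap with a gene was 0.8 or more of the joint span, and under 0.7 for any second gene. A symbol was given to 17379 entries, while 8265 shared a locus. Ratios are log2 of FPKM + 1 among entries with at least 1 FPKM in either library, and 2-fold is the threshold of the study's methods. TPM was the FPKM of a library rescaled so that all libraries had the same sum. The depth cannot be given as reads, and its steps were read from entries below 0.2 FPKM. No test, SD or adjusted p was computed, since no group had a replicate.

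The text names every member with its own entry, S100a4 and Acta2, from the other pathway lists the measured genes of a short list or those of high level or extreme ratio of a long one, and a few cell type markers. A result for a single gene of these lists is not reported here. Members and lists were chosen with earlier results of these data known. In total 11 alternatives were run for each comparison: other pseudocounts, filters, scalings, thresholds and naming rules. Promoter sequences came from RefSeq, GRCm38.p6. The naming and the ratios were tested on simulated data. Python 3.11.15 with pandas 2.3.3, NumPy 2.4.6 and matplotlib 3.10.9 was used.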

Additional observations from a re-analysis of the deposited data

Results flagged for a closer look

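On the FPKM scale, for 4 members the infarct libraries lay on opposite sides of the uninjured library. The log2 ratio of FPKM + 1 over uninjured was 1.10 in FSP1+ and -0.20 in αSMA+ for Oasl2. For Ifit3 it was 0.88 and -0.73. For Usp18, which removes Isg15 from proteins, it was 1.59 and -0.15. For Parp12 it was 1.12 and -0.031. Parp12 rests on 8.97 FPKM in the αSMA+-labelled library against 9.18 in the uninjured library. In TPM 14 members lay on opposite sides in place of 4. Rescaling to TPM moved the median of all entries by -0.26 for FSP1+ over uninjured and -0.52 for αSMA+ over uninjured. Some of the 14 lay near 0 for αSMA+ over uninjured in TPM, such as Oas2 at -0.05 and Oas1a at -0.07. The share of all entries on opposite sides is not given here for either scale. With 1 library per group the difference between the infarct libraries was not tested for any of them.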

How the results depend on the processing

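No paired analysis was possible because each group has 1 library. Over the alternatives other than the threshold, the members at least 2-fold higher numbered 20 to 26 for FSP1+ over uninjured, 5 to 8 for αSMA+ over uninjured and 14 to 18 for FSP1+ over αSMA+. The share of all entries at least 2-fold higher ranged from 9.13% to 20.1%, 9.26% to 25.6% and 9.95% to 25.3% in the same order. At a 4-fold threshold the members' counts were 9, 2 and 4, beside 5.23%, 5.81% and 4.03% of all entries. The count of 2 of 29 was thus near the share of all entries. At 4-fold the count lower for FSP1+ over αSMA+ was 0, beside 2.98% of all entries. In TPM, 1 member was at least 2-fold lower for αSMA+ over uninjured, beside 20.6% of all entries. Rescaling to TPM moved the median of all entries by -0.26, -0.52 and 0.09 in the same order, and ratios taken through the library that the other tables share moved it by 0.26, -0.21 and -0.26. Of 856 values of single members under the alternatives, 29 moved by more than 1.5-fold, 15 of them in TPM and 12 with a pseudocount of 5, and 0 reversed a call. An alternative chosen after seeing the data added 5 members by their entry with reads (Rtp4, Igtp, Parp14, Gbp2 and Trim30a). It gave 28, 9 and 18 of 34 higher, beside 14.6%, 17.0% and 19.1% of all entries, with medians of 1.62, 0.45 and 1.07. Read numbers are not in the tables, so the precision of the low members, such as Mx2 and Oas3, cannot be given.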

Other observations

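Genes of antigen presentation, many of which interferon gamma induces, were counted from a list of 16, of which 9 had an entry of their own. For FSP1+ over uninjured 7 of the 9 passed 2-fold upward and 0 downward, with a median log2 ratio of 1.87, against 3 of 9 and a median of 0.47 for αSMA+ over uninjured. Of all entries, 14.6% and 17.0% passed 2-fold upward in these comparisons. H2-K1, a class I heavy chain, stood at 1318 TPM in the FSP1+-labelled library, 424 in the αSMA+-labelled library and 272 in the uninjured library, with a log2 ratio of 2.50 for FSP1+ over uninjured. The immunoproteasome subunits had the largest ratios between the infarct libraries, with log2 ratios for FSP1+ over αSMA+ of 3.04 for Psmb9, 2.45 for Psmb10 and 1.98 for Psmb8. The peptide transporter genes Tap1 and Tap2 had 1.67 and 1.22 there. Ciita, the activator of class II genes, had 0.40 there and 0.59 and 0.29 over uninjured. Cd74, the class II invariant chain, and Cd274, which encodes PD-L1, went the other way, with -0.54 and -0.21, and over uninjured Cd274 had 1.87 in the FSP1+-labelled library and 2.28 in the αSMA+-labelled library.

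Feedback inhibitors of cytokine signalling were all measured, and 3 of 5 were at least 2-fold higher in each infarct library than in the uninjured library, beside 14.6% of all entries for FSP1+ and 17.0% for αSMA+. Socs3, which interleukin 6 signalling induces, stood at 951 TPM in the FSP1+-labelled library, 273 in the αSMA+-labelled library and 56.2 in the uninjured library. Socs1, which restrains interferon signalling, had log2 ratios over uninjured of 1.16 and 0.11. Tnfaip3, which restrains NF-kappaB, had 2.43 and 3.46, Ptpn2 had 0.50 and 2.03, and Pias1 had 0.40 and 0.84. The chemokine Cxcl9, which interferon gamma induces, had 0.69 and 0.20. The part of other cell types in these values was not tested.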
